A study of Rattus norvegicus with 8 samples.

Results

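The 10 genes Hspa5, Calr, Canx, Dnajb9, Pdia3, Pdia4, Xbp1, Atf6, Atf4 and Ddit3 encode chaperones of the endoplasmic reticulum (ER) and transcription factors of the unfolded protein response. Their mRNA was followed between the secretory and the maturation stage of enamel formation in the rat incisor. The genes were chosen with earlier results of these data known, and their probes were found by gene symbol, without regard to case. Each gene was matched by 1 probe, so that 10 of the 22523 probes of the array represent them. Xbp1 mRNA fell to 0.454 of its secretory-stage level and Pdia4 mRNA to 0.655, Atf4 mRNA rose 1.35-fold, 6 genes did not pass the test, and Atf6 was not detected on any array.

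Enamel organs are the epithelial tissue that covers the forming enamel. Ameloblasts of the secretory stage export large amounts of amelogenin, enamelin and other matrix proteins through the ER, whereas maturation-stage ameloblasts remove that matrix and transport ions. In the ER, nascent proteins are held by the Hsp70 chaperone BiP and by the lectins calnexin and calreticulin, and disulfide bonds are formed and rearranged by protein disulfide isomerases. When unfolded proteins accumulate, the sensors IRE1, PERK and ATF6 act through the transcription factors XBP1, ATF4 and ATF6, which raise the transcription of chaperone, degradation and amino acid metabolism genes, and CHOP, the product of Ddit3, links a prolonged response to cell death.

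Total RNA was obtained from secretory-stage and maturation-stage enamel organs of the mandibular incisors of 4 male Wistar Hannover rats, 4 weeks old. Each rat gave both stages, so that there were 4 arrays per stage and 8 in all, hybridised on RatRef-12 v1 BeadChips. The tissue was dissected from frozen, lyophilized jaws along a reference line and holds every cell type of the organ, not ameloblasts alone. Fewer cells of a type and less RNA per cell cannot be told apart in such samples. For maturation replicates 2, 3 and 4 the field on the RNA source gives the secretory stage, whereas title, description and tissue give maturation, which was used. All 8 arrays correlated more closely with the arrays of their own stage than with those of the other. The values given are normalized log2 signals, and a difference is the maturation-stage minus the secretory-stage mean. A gene is said to have risen or fallen at an adjusted p (Benjamini-Hochberg over all probes, limma) below 0.05, and is called if the fold change (FC) was also at least 1.8.

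The stages were separated by markers from fixed lists, which were drawn up with earlier results of these data known. The paper had checked Enam by real-time PCR to accept these RNA samples. It also listed Cftr, Slc26a1, Cd68 and Lcp1 as higher in maturation on the same arrays. The marker results are therefore no independent check of the stages. Enam, which encodes enamelin, was between 11.94 and 12.03 on the secretory arrays, whereas the maturation arrays were at 9.08, 5.17, 5.53 and 8.22 for replicates 1 to 4. Maturation replicates 1 and 4 thus held more secretory-stage transcript than the other two. In all, 3 of 4 secretory ameloblast markers fell (the sum of their signals went from 58657 to 63409 down to 30681 to 52975, on the linear scale of the normalized signals) and 4 of 4 maturation ameloblast markers on the array rose, from a sum of 217 to 297 to one of 14638 to 17089. Enam fell 31.7-fold and Mmp20 16.3-fold. Ambn, still at a mean of 14.20 in maturation, fell by 0.36 (adjusted p = 0.0353) with overlapping stages. Amelx, at 14.41, did not pass (-0.53, adjusted p = 0.0555). Macrophage and leukocyte markers also moved with stage: 9 of 10 rose, and their summed signal was 3752 to 4482 in secretory and 10077 to 12963 in maturation organs. Of the plasma and B cell markers, whose cells are rich in ER, 2 of 8 rose and 4 (Mzb1, Tnfrsf17, Prdm1 and Irf4) were not detected, with sums of 1137 to 1363 and 1653 to 2241. Of 8 odontoblast and osteoblast markers 1 fell and 2 rose, with sums of 30132 to 48307 and 40531 to 43926. Dspp, used here as an odontoblast marker, was at 9.33 to 10.68 on the secretory arrays and not detected on any maturation array, at least 34-fold lower, and Ibsp, a bone matrix gene, rose 3.86-fold. Counts of falls and rises in the other lists were, for fibroblast and mesenchyme markers, 1 and 3 of 6 (41252 to 47470 against 50579 to 52596), and for endothelium markers, 0 and 2 of 5 (1801 to 2601 against 3006 to 4303). None of 4 erythroid (41467 to 57706 against 47951 to 54979) and none of 6 skeletal muscle markers (227 to 592 against 233 to 965) passed in limma, where 1 of each list had an unadjusted p below 0.05, or in the methods' t-test. The part of these other cells in the results below was not tested. The deposited signals were brighter in maturation, with array sums of 13355073 to 16122665 against 11881691 to 12046793. The scaling between arrays therefore bears on the differences and counts below, larger ones included.

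The promoters of some members hold the ER stress response element (ERSE), to which ATF6 and XBP1 are known to bind together with the factor NF-Y. It was searched as CCAAT, any 9 bases and CCACG, on both strands, in windows from 250 bases before to 50 bases after the start of each gene (RefSeq, GRCr8). These letters occurred in 22 of 33469 promoters (0.0657%) and in 4 of the 8 member promoters in the table, those of Hspa5, Canx, Xbp1 and Calr. Pdia3 and Atf6 had no entry. The windows of Hspa5 (chr3:38452766-38453065, plus strand) and Xbp1 (chr14:84604373-84604672, plus strand) are shown in full, because they carry the same element close to the start of a gene that did not pass the test and of the gene that fell most. Capitals mark the CCAAT and CCACG parts, which lay at -43 to -25 in Hspa5 and at -65 to -47 in Xbp1, counting the first base of the gene as 0.
Hspa5: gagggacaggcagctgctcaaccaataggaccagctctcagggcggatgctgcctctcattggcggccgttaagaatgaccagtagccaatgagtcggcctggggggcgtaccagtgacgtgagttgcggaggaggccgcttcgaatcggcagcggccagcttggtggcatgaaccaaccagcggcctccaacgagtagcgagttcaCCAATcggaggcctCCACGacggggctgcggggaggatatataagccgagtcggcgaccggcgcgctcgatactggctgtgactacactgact
Xbp1: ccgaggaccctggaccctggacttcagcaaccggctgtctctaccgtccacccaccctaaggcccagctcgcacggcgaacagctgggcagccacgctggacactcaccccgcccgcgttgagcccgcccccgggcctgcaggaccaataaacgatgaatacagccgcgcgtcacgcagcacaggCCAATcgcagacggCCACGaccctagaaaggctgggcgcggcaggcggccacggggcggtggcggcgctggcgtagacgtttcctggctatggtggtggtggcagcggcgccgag
The matches of the other members and of list genes with a probe are printed alone, on the strand of the gene. Ero1b, a list gene without a probe, also held the element, at -224 to -206, and is not printed. In Canx the element was at -230 to -212. In Calr (-232 to -214), Derl3, Creld2 and the nearer of the pair in Hsp90b1 it lay on the opposite strand and is read as CGTGG, 9 bases and ATTGG.
Canx: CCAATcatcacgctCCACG
Calr: CGTGGtcgaccctgATTGG
Hsp90b1, farther: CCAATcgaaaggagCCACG
Hsp90b1, nearer: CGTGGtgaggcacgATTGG
Dnajc3: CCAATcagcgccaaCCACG
Creld2: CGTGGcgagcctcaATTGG
Derl3: CGTGGgacttccttATTGG
No member promoter held ERSE-II (ATTGG, any base and CCACG, 0.0508% of all promoters), the UPRE (TGACGTGG, 0.595%) or the CARE to which ATF4 binds (TGATGCAA, 0.795%), all searched on both strands. A match is a run of letters and no measurement of binding.

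Among the 9 genes that were detected, 2 fell (Pdia4 and Xbp1) and 1 rose (Atf4), while 14.0% of all probes fell and 12.8% rose. Among probes detected on all arrays, as these 9 genes were, the shares were 29.9% and 24.1%, so that 2 and 1 of 9 are near or below the background. Xbp1 alone was called lower and no member was called higher, against 3.15% and 4.60% of all probes. By limma, no member passed the fold threshold upwards at an unadjusted p below 0.05 or in the methods' t-test either. Every maturation array lay below every secretory array for Hspa5, Pdia4 and Xbp1 and above it for Atf4. This was so for 14.6% and 13.1% of all probes. The shares of called and of non-overlapping probes among those detected on all arrays were not computed. These member counts therefore have no matched share to be set against.

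**Figure D1:**
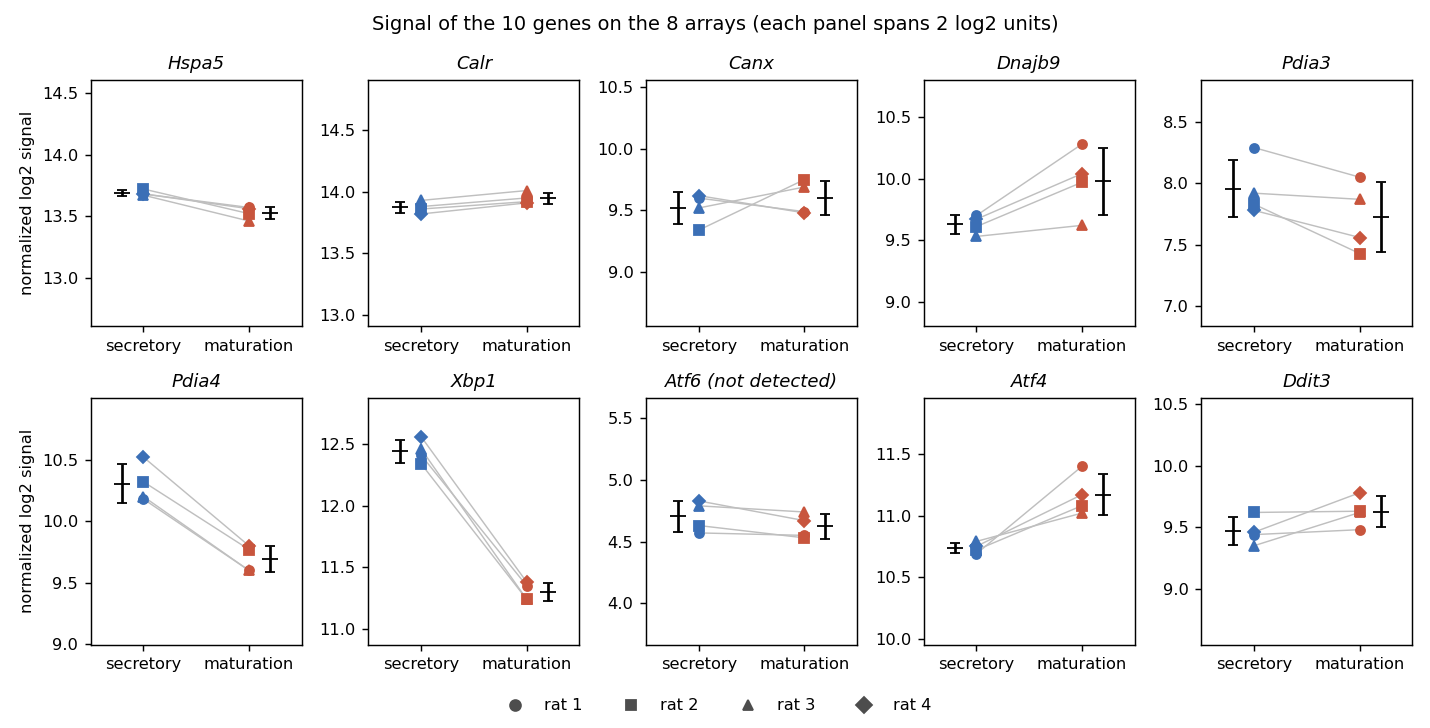
Normalized log2 signal (y axis) of the 10 genes in secretory-stage and maturation-stage enamel organs, each symbol shape being 1 rat with a line joining its stages, and bars beside the points giving the mean and SD of 4 arrays. Xbp1 dropped from 12.34 to 12.56 down to 11.24 to 11.38, Hspa5 and Calr differed by -0.16 and 0.08, and Atf6 was not detected.

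Hspa5 encodes BiP, the Hsp70 chaperone of the ER lumen. Its signals were 13.68, 13.72, 13.67 and 13.68 on the secretory arrays and 13.57, 13.52, 13.46 and 13.56 on the maturation arrays. The stages did not overlap and 4 of 4 rats were lower in maturation, but by 0.11 to 0.21 log2 units, a mean ratio of maturation to secretory of 0.896. The difference of -0.16 (SE 0.0522, 95% interval -0.28 to -0.04, adjusted p = 0.0504) did not pass the threshold. It passed with cyclic loess (-0.20, adjusted p = 0.0167), the methods' t-test (0.00904), no background correction (0.00956) and an offset of 50 (0.00553), and was 0.03 without normalization between arrays. Relative to the median of the probes detected on all arrays it was at -0.09, and at -0.37 both without normalization and with median scaling. The deposited signals, before any normalization, were 12251 to 12667 in secretory and 10883 to 14404 in maturation organs, and overlapped.

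Calreticulin, the soluble lectin chaperone of the ER and a calcium store, also held a near-constant signal. Calr was at 13.88, 13.86, 13.93 and 13.82 in the secretory stage and at 13.95, 13.92, 14.01 and 13.91 in the maturation stage. It was higher in 4 of 4 rats, by 0.06 to 0.09, with overlapping stages (0.08, SE 0.0541, interval -0.05 to 0.20, adjusted p = 0.395). Canx, which encodes its membrane-bound relative calnexin, was at 9.60, 9.34, 9.52 and 9.62 against 9.49, 9.75, 9.69 and 9.48. It was higher in 2 rats and lower in the other 2 (0.08, SE 0.0903, interval -0.12 to 0.28, adjusted p = 0.635). Without normalization both passed (Calr 0.22 and Canx 0.61), at a median of 0.40 over the probes detected on all arrays, and with median scaling Canx did (0.42, at a median of 0.20). Relative to that median, Calr was at 0.15 in the main processing and at -0.18 under these scalings, and Canx at 0.15 and 0.21.

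Dnajb9 encodes ERdj4, a co-chaperone that hands misfolded proteins to BiP and to degradation. Its secretory signals were 9.70, 9.61, 9.53 and 9.67, and its maturation signals 10.28, 9.97, 9.62 and 10.04. Maturation replicate 3 lay among the secretory arrays and the other 3 above them. All 4 rats were higher in maturation, by 0.59, 0.36, 0.09 and 0.38, but the mean difference of 0.35 (SE 0.123, interval 0.08 to 0.63) did not pass (adjusted p = 0.0634). Dnajb9 passed with the rat as a block (adjusted p = 0.0264) and without maturation replicate 3 (0.47, adjusted p = 0.00433), and was at 0.17 (adjusted p = 0.376) without maturation replicates 1 and 4. It also passed with cyclic loess (0.42, adjusted p = 0.0289), the detection filter (adjusted p = 0.0381), no background correction (0.32, adjusted p = 0.0364), median scaling (0.67, adjusted p = 0.0053) and without normalization (0.87, adjusted p = 0.00256), the last past the fold threshold. Relative to the median of detected probes it was at 0.42 in the main processing and at 0.47 under the last 2 scalings.

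Of the disulfide isomerases, Pdia3 encodes ERp57, which works with calnexin and calreticulin on glycoproteins, and Pdia4 encodes ERp72, an isomerase found in complexes with BiP. Pdia4 was at 10.18, 10.32, 10.20 and 10.52 in the secretory stage and at 9.60, 9.77, 9.60 and 9.80 in the maturation stage. The stages were apart, each of 4 rats was lower in maturation by 0.54 to 0.72, and Pdia4 fell by 0.61 on the log2 scale (SE 0.0890, adjusted p = 6.02e-04). With median scaling its difference was -0.31 (adjusted p = 0.0308) and without normalization -0.11 (adjusted p = 0.501), each of which is -0.51 relative to the median of the probes detected on all arrays, against -0.54 in the main processing. Pdia3 gave 8.29, 7.83, 7.92 and 7.78 against 8.05, 7.43, 7.87 and 7.56. It was lower in maturation in 4 of 4 rats, by 0.05 to 0.40, with overlapping stages, and did not pass (-0.23, SE 0.155, interval -0.58 to 0.12, adjusted p = 0.376). Its difference was 0.11 with median scaling and 0.31 without normalization, which relative to the median of detected probes is -0.09 in both, against -0.16 in the main processing.

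XBP1 is the transcription factor that IRE1 activates by cutting an intron from its mRNA, and it drives the build-up of the secretory apparatus. Xbp1 had the largest difference of the 10 genes. Its signals were 12.41, 12.34, 12.46 and 12.56 in secretory and 11.35, 11.24, 11.24 and 11.38 in maturation organs. The 4 rats were lower by 1.06, 1.10, 1.22 and 1.18, and Xbp1 fell by 1.14 (SE 0.0662, interval -1.29 to -0.99, adjusted p = 1.58e-06). The fall was present in the deposited signals too, at 4585 to 5264 against 2573 to 3417, although the maturation arrays were brighter as a whole. Xbp1 passed at 0.05 under every alternative tried. Its difference was -0.73 without normalization, under the fold threshold, and -1.21 without maturation replicates 1 and 4. A single probe measured Xbp1, and whether it tells spliced from unspliced mRNA was not examined.

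Atf4, whose product is made when PERK or a related kinase slows translation, moved the other way. Its secretory signals lay close together at 10.69, 10.72, 10.79 and 10.75, and its maturation signals at 11.40, 11.08, 11.02 and 11.17. All maturation arrays were higher than all secretory ones, replicate 1 most of all, and the rats gained 0.72, 0.36, 0.23 and 0.42. Atf4 rose by 0.43 (SE 0.0847, adjusted p = 0.00365) and passed under every alternative, at 0.32 (adjusted p = 0.0135) without maturation replicates 1 and 4, 0.71 with median scaling and 0.91 without normalization, the last past the fold threshold. Relative to the median of detected probes it was at 0.50, and at 0.51 under both scalings. ATF4 activity is set largely by translation, which arrays of total RNA do not measure.

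Ddit3, a target of ATF4 that encodes CHOP, was at 9.44, 9.62, 9.35 and 9.46 against 9.48, 9.63, 9.62 and 9.78. The stages overlapped, with differences of 0.03, 0.01, 0.27 and 0.32 in the rats, and Ddit3 did not pass (0.16, SE 0.0824, interval -0.03 to 0.34, adjusted p = 0.221). It passed with median scaling (0.49, adjusted p = 0.0018) and without normalization (0.69, adjusted p = 3.17e-04), where the median of detected probes was itself 0.20 and 0.40. Atf6, which encodes the sensor that is cut in the Golgi to release a transcription factor, had detection p-values between 0.127 and 0.453. Its deposited signals of 102 to 118 did not stand above the negative controls in either stage, and no fold is given.

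**Figure D2:**
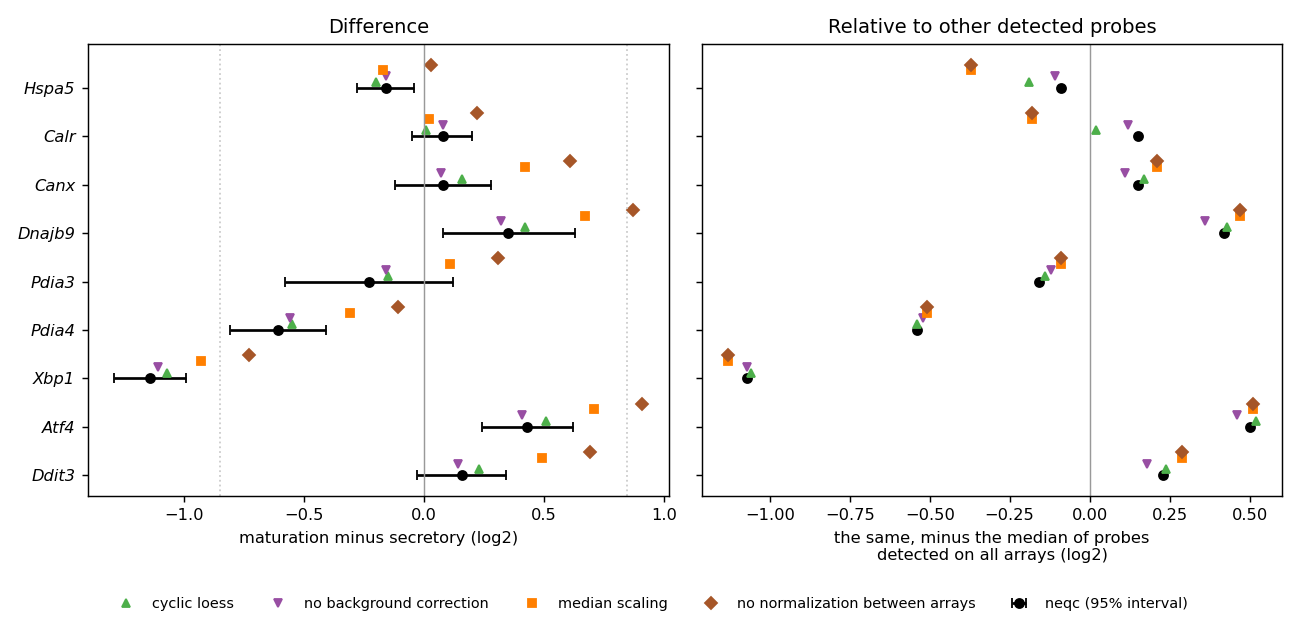
Maturation minus secretory difference (log2) of the 9 detected genes, with the 95% interval of the limma fit (black) and the values under 4 other scalings or background settings, dotted lines marking a 1.8-fold change. The right panel gives the same after subtracting the median difference of the probes detected on all 8 arrays, where Xbp1 lay between -1.13 and -1.06 and Atf4 between 0.46 and 0.52 in all 5 settings.

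**Figure D3:**
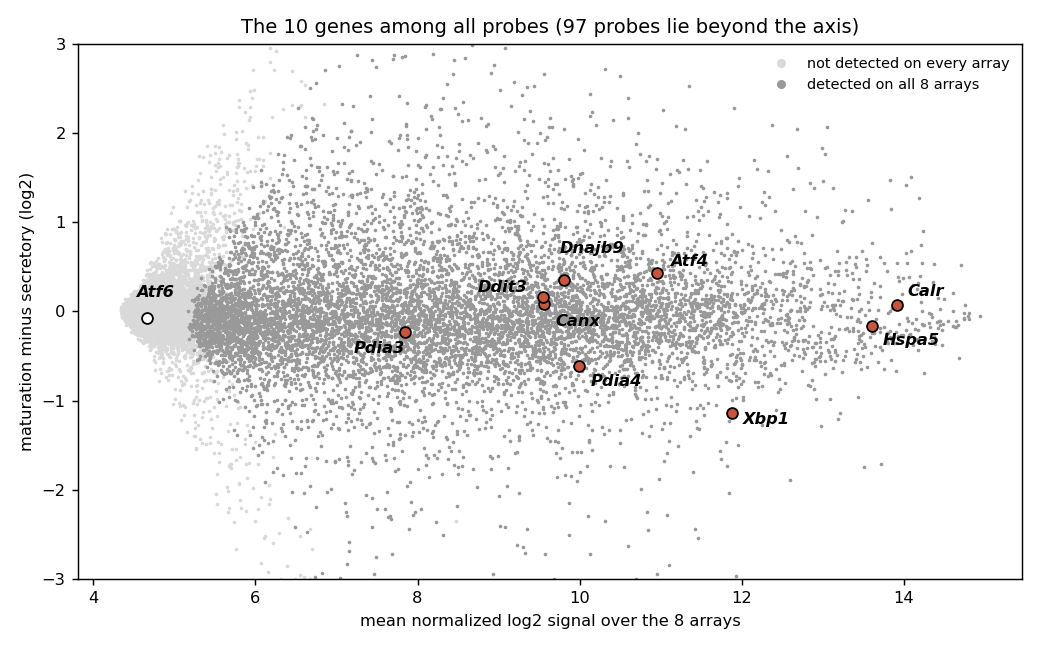
Mean normalized log2 signal over 8 arrays (x axis) against the maturation minus secretory difference (y axis) for the probes within 3 log2 units of 0 (97 lie beyond the axis), dark grey where detected on all 8 arrays, with the 10 genes marked and Atf6 as an empty circle. The members lie among the other probes, Xbp1 lowest of them at -1.14 and Atf4 highest at 0.43.

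The other genes of the same pathways were taken from 6 lists. Of 152 genes, 135 were on the array and 120 were detected, of which 39 fell, 26 rose and 55 did not pass. Their median difference was -0.05, and -0.09 over the 99 detected on all 8 arrays, against -0.07 for all probes so detected and -0.01 for all probes. Of these 99 genes, 37 fell (37.4%) and 23 rose (23.2%), against 29.9% and 24.1% of all probes so detected. The shares and relative medians of each list are given on the same basis. With median scaling 20 fell and 44 rose, and without normalization 9 and 63. The median of all probes was then -0.07 and 0.13, and that of the detected ones 0.20 and 0.40. List medians are therefore also given relative to the detected probes.

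Of the lumenal chaperones and co-chaperones besides the members, 10 of 18 detected genes fell and 3 rose. Of the 16 detected on all arrays these were 62.5% (against 29.9%) and 18.8% (against 24.1%), and none of the list was called, in limma, at an unadjusted p or in the methods' t-test. With median scaling 6 fell and 3 rose, and without normalization none fell and 6 rose. The list median was -0.23. Over the genes detected on all arrays it was -0.29, which was -0.22 relative to the detected probes, and -0.23 relative to them under both of these scalings. Dnajb11, whose product ERdj3 is a secreted partner of BiP, fell by 0.75 (SE 0.0763, adjusted p = 5.95e-05), but not without normalization (-0.26). Its second probe was not detected. Crtap, part of the complex that modifies collagen prolines, fell by 0.83 (adjusted p = 1.09e-04), but not without normalization (-0.29). Hsp90b1, which encodes the ER Hsp90 chaperone GRP94, went from 12.18 ± 0.0542 to 11.94 ± 0.0872 (SD, n = 4) and fell by 0.24 (adjusted p = 0.019). That call was lost without secretory replicate 1 (-0.22, adjusted p = 0.053), without maturation replicates 1 and 4 (-0.19, adjusted p = 0.106), with cyclic loess (-0.17), with normexp without negative controls (-0.23), at a limit of 0.01 and with median scaling (-0.04), and without normalization the difference was 0.16. Relative to the detected probes it was -0.17, and -0.24 under the last 2 scalings. Dnajc3 rose by 0.76 (adjusted p = 9.07e-05). It encodes P58IPK, a co-chaperone of BiP and inhibitor of PERK. Sil1, the nucleotide exchange factor of BiP, rose by 0.55 (adjusted p = 1.33e-04). Hyou1, which encodes another exchange factor of BiP, was not detected.

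Among genes of disulfide and oxidative folding, 9 of 13 detected genes, all 13 on every array, fell (69.2%, against 29.9%) and 1 rose (7.69%, against 24.1%), with a median of -0.39. Relative to the detected probes the median was -0.32, and -0.41 with median scaling (5 fell and 3 rose) and without normalization (3 fell and 4 rose). Pdia5, a disulfide isomerase, fell from 9.99 ± 0.126 to 8.40 ± 0.0840 (SD, n = 4), by 1.59 on the log2 scale (SE 0.0772, adjusted p = 5.59e-07). Erp29, which encodes a redox-inactive relative of the isomerases, fell by 0.87 (SE 0.0564, adjusted p = 3.23e-06). These 2 genes were the ones called lower. Pdia6 had the same direction at 13.26 ± 0.0170 against 12.43 ± 0.0182 (SD, n = 4), a fall of 0.83 (adjusted p = 1.58e-06). P4hb, which encodes the founding isomerase PDI, fell by 0.39 (adjusted p = 0.00657), a call lost with median scaling (-0.26) and without normalization (-0.07). Creld1 rose by 0.76 (adjusted p = 1.33e-04) and was the one gene of the list to rise.

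In the calnexin cycle and N-glycan trimming list, 5 of 12 detected genes fell (50% of the 10 detected on all arrays, against 29.9%) and none rose (against 24.1%) by limma, as was so at an unadjusted p below 0.05 (6 and 0) and in the methods' t-test (4 and 0). With median scaling 1 fell and 2 rose, and without normalization 1 and 3. The median was -0.15. Over the genes detected on all arrays it was -0.25, which was -0.18 relative to the detected probes, and -0.16 under both scalings. Lman1, a lectin that carries glycoproteins out of the ER, fell by 0.85 (SE 0.0553, adjusted p = 3.39e-06). Ganab, the catalytic subunit of glucosidase II, fell by 0.70 (adjusted p = 0.00335), though not with median scaling (-0.35) or without normalization (-0.15). Uggt1, the glucosyltransferase that returns misfolded glycoproteins to calnexin, was at 5.68 ± 0.287 against 5.73 ± 0.196 (SD, n = 4), a difference of 0.05 (adjusted p = 0.878).

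Of 20 detected genes of ER-associated degradation, 3 fell and 5 rose, and of the 17 detected on all arrays 3 fell (17.6%, against 29.9%) and 4 rose (23.5%, against 24.1%), with a list median of 0.01, which was 0.08 relative to the detected probes. With median scaling 1 fell and 10 rose, and without normalization none and 15. The ubiquitin-conjugating enzyme Ube2j2 rose by 0.71 (adjusted p = 2.06e-04), Sel1l, an adaptor of the ligase complex, by 0.49 (adjusted p = 0.00298), and Ufd1l, a partner of the ATPase that extracts proteins from the membrane, by 0.62 (adjusted p = 0.00544, and 0.52 with adjusted p = 0.0519 without maturation replicates 1 and 4). Vimp fell by 0.64 (adjusted p = 1.73e-04), but not without normalization (-0.22). It encodes the membrane protein VIMP, which binds derlins and p97. The ligase Syvn1 fell by 0.35 (adjusted p = 0.00471) and the conjugating enzyme Ube2g2 by 0.38 (adjusted p = 0.00173), but without normalization their differences were 0.09 and 0.17 (-0.31 and -0.23 relative to the detected probes). Herpud1, a scaffold of the same complex, was at -0.22 (adjusted p = 0.202). Derl3, which encodes a derlin, had a detected signal on 4 maturation arrays but on 0 secretory arrays, and was higher in maturation by a factor of at least 1.37 (adjusted p = 0.00216). It was named after its values were seen.

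The list of sensors and regulators gave 6 falls and 8 rises among 26 detected genes. Of the 20 detected on all arrays 4 fell (20%, against 29.9%) and 8 rose (40%, against 24.1%). The list had 3 called lower and 2 called higher, and a median of 0.12. Over the genes detected on all arrays it was 0.24, or 0.31 relative to the detected probes (0.22 under both other scalings, where 4 fell and 12 rose and 3 fell and 15 rose). Eif2ak3, which encodes PERK, fell from 9.23 ± 0.157 to 8.06 ± 0.0762 (SD, n = 4), by 1.17 (SE 0.0846, adjusted p = 6.66e-06). Ern1, which encodes IRE1, was not detected on any array. Mbtps1, a protease that cuts ATF6, fell by 0.30 (adjusted p = 0.0103), a call lost without maturation replicates 1 and 4 (-0.20) and with median scaling (0.01, or -0.19 relative to the detected probes). Ppp1r15a, which encodes GADD34, the phosphatase subunit that reverses the action of PERK, rose by 0.71 (adjusted p = 9.40e-04).  Nfe2l2, which encodes the antioxidant regulator NRF2, a substrate of PERK, rose by 1.10 (adjusted p = 2.71e-05), and Map3k5, which encodes the kinase ASK1, by 0.92 (adjusted p = 1.73e-05), on the brighter of its probes, the other not being detected. Traf2, an adaptor between IRE1 and ASK1, fell by 0.62 (adjusted p = 0.00102), but not without normalization (-0.10). The other genes called lower were Creb3l2 (-1.43) and Creb3l4 (-1.07), named after their values were seen. They encode membrane-bound transcription factors related to ATF6, and each was detected on 7 of 8 arrays.

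Among targets of ATF4 and CHOP, 11 of 34 detected genes rose, 6 fell and 17 did not pass. Of the 26 detected on all arrays 9 rose (34.6%, against 24.1%) and 6 fell (23.1%, against 29.9%). The list had a median of 0.20. Over the genes detected on all arrays it was 0.11, which was 0.18 relative to the detected probes and 0.15 under both other scalings (16 rose and 3 fell with median scaling, 23 and 2 without normalization). Gadd45a, a growth arrest gene, rose from 8.24 ± 0.106 to 9.79 ± 0.123 (SD, n = 4), by 1.55 (SE 0.0808, adjusted p = 8.43e-07). Nupr1, which encodes a small stress-induced chromatin protein, rose by 1.28 (SE 0.0778, adjusted p = 2.16e-06). Atf3, a stress-induced transcription factor, rose by 0.93 (SE 0.198, adjusted p = 0.00587), but was detected on 1 secretory and 4 maturation arrays and did not pass without maturation replicates 1 and 4 (0.80, adjusted p = 0.0515). The rule for named genes also took the largest falls of the list. Slc7a5, a transporter of large neutral amino acids, fell by 1.07 (SE 0.119, adjusted p = 1.06e-04), and Phgdh, the first enzyme of serine synthesis, by 0.82 (adjusted p = 6.10e-06). Asns, which encodes asparagine synthetase, did not pass (-0.25, adjusted p = 0.225). Trib3 and Chac1, often used as readouts of ATF4 and CHOP, were each detected on 1 of 8 arrays and did not pass (0.25, adjusted p = 0.133 and 0.24, adjusted p = 0.209). Trib3 passed without normalization (0.37, adjusted p = 0.0378) and Chac1 without maturation replicates 1 and 4 (0.41, adjusted p = 0.0377). The values of both genes rest on signals near background and allow no statement.

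**Figure D4:**
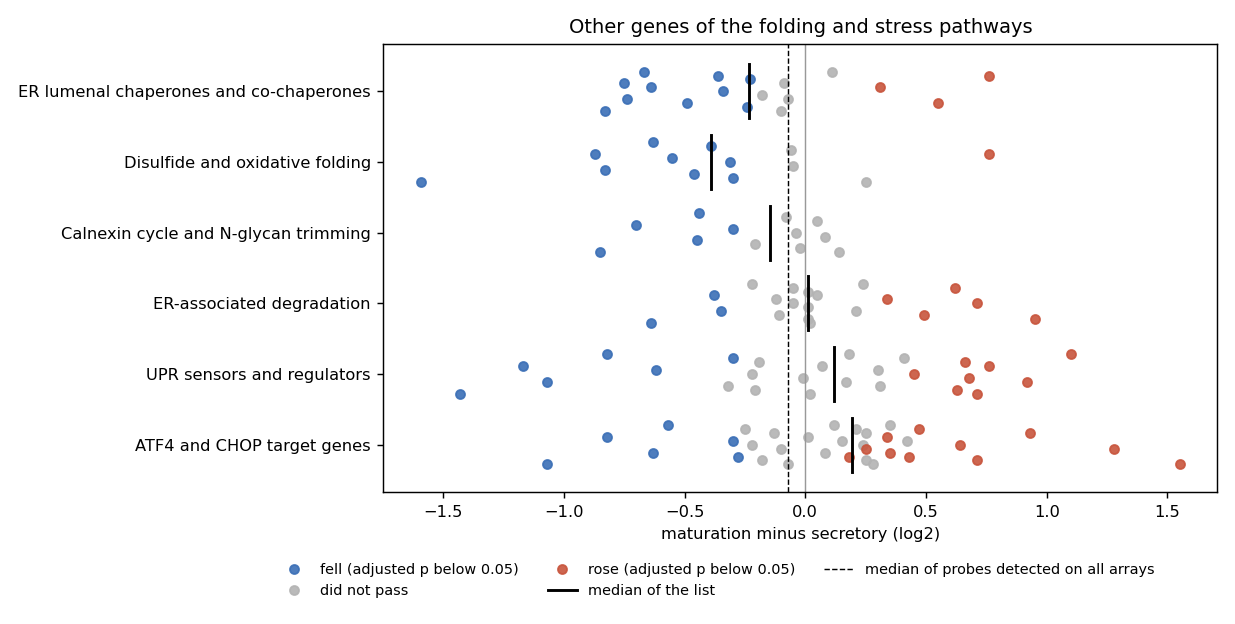
Maturation minus secretory difference (log2, x axis) of every detected gene in the 6 lists, members left out, each point 1 gene, coloured by whether it fell, rose or did not pass, with solid bars for list medians and a dashed line at -0.07 for the probes detected on all arrays. Over the genes shown, disulfide and oxidative folding has the lowest median at -0.39, and ATF4 and CHOP targets the highest at 0.20. The dashed line has another basis, the probes detected on all arrays. On that basis the sensors and regulators have the highest list median at 0.24, and ATF4 and CHOP targets are at 0.11.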

How the data were processed

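mRNA was profiled on RatRef-12 v1 BeadChips (Illumina) in 8 RNA samples, 4 secretory and 4 maturation, with stage and replicate number taken from the sample titles. Samples with the same replicate number were taken to come from the same rat. The authors deposited, for each probe and array, a mean bead signal as an intensity without background correction or normalization, a detection p-value, the bead count and its standard error of signal. The array software and genome build are not given in the sources used here. The probes of the 10 genes rested on 28 to 61 beads per array, and the number of arrays limits the precision.

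The signals were processed in R 4.3.3 with limma 3.58.1. The function neqc was used for background correction (negative controls estimated by means of the detection p-values, offset 16), quantile normalization and log2 transformation. lmFit and eBayes were run on all 22523 probes with stage as the only term, and p-values were adjusted by Benjamini-Hochberg. The fit was first tested on simulated data. Where no array of a stage had a detection p below 0.05, the probe counted as not detected in that stage, and a fold against it is a lower bound. A gene with several probes was counted by the brightest. Tables were made with Python 3.11.15, pandas 2.3.3 and numpy 2.4.6. Promoters are from a RefSeq table of GRCr8.

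The members and lists were chosen with earlier results of these data known. Named genes were the members, fixed genes of each list, up to 2 with the largest rise and fall per list that passed the test, did not overlap and were detected on all 8 arrays, and the 5 probes most like Hspa5. List genes were matched by symbol, older symbol or gene ID, and 17 of 152 had no probe.

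Each rat gave both stages. Deviations of its 2 arrays from the stage means correlated at 0.195, 0.129, 0.219 and 0.234, so that the numbers pair the samples, and blocking by rat in limma was tried. Further alternatives were median scaling or cyclic loess in place of quantiles, other background settings (normexp without negative controls, none, offset 50), a filter on detection (11233 probes), the methods' t-test, a limit of 0.01 on the adjusted p, the probe of lowest p per gene, and the omission of each array. No normalization, and leaving out maturation replicates 1 and 4 together, were chosen after seeing the data. The deposited intensities come from separate samples of 4 animals. The main p-values set the stage difference against the spread among arrays of a stage. They take all arrays as independent, although each rat gave both stages.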

Additional observations from a re-analysis of the deposited data

Results flagged for a closer look

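In 5 sets of 4 arrays, 1 array stood far from the other 3, judged by Dixon's ratio of gap to range at the 95% level. Chance would give 4.2 of the 84 sets examined. Hspa5 was at 13.72 in secretory replicate 2, with the others at 13.67 to 13.68. Hsp90b1 was at 11.81 in maturation replicate 4, with the lowest of the others at 11.97, and Pdia5 at 8.28 in the same array, below 8.43 to 8.45. Map3k5 was at 6.43 in maturation replicate 3, above 6.13 to 6.18. Atf3 was at 5.80 in secretory replicate 1, with the lowest of the others at 4.94.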

How the results depend on the processing

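The fall of Xbp1 and the rise of Atf4 passed at 0.05 under all 19 alternatives computed for them, and the fall of Pdia4 under all but the lack of normalization. With 2 members lower and 1 higher in the main processing, the replicate block gave 2 higher (Dnajb9 added), as did cyclic loess, the detection filter and no background correction. With Hspa5 added, 3 were lower with cyclic loess, no background correction, an offset of 50 and the methods' t-test. Median scaling gave 4 higher. Without normalization 5 were higher, 1 lower, 0 called lower and 2 called higher (Dnajb9 and Atf4). With each array left out, 2 members were lower, 1 to 2 higher (2 without maturation replicate 3), 1 called lower and 0 called higher. The replicate block gave 40 falls and 27 rises in the lists, and changed no other call of a member.

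In the lists (39 lower, 26 higher, 6 called each way), median scaling gave 20 lower, 44 higher, 3 called lower and 16 called higher, and no normalization 9, 63, 2 and 23. No background correction and an offset of 50 each gave 3 called higher, and leaving out maturation replicates 1 and 4 together gave 10 called lower. With each array left out the ranges were 35 to 39 lower, 24 to 27 higher, 6 to 9 called lower and 5 to 6 called higher. The 9 called lower were found without maturation replicate 4. Differences above 0 were found without normalization for Hspa5 (0.03), Pdia3 (0.31), Ube2g2 (0.17), Hsp90b1 (0.16), Herpud1 (0.33), Syvn1 (0.09), Mbtps1 (0.21) and Asns (0.26), and with median scaling for Pdia3 (0.11), Herpud1 (0.13), Mbtps1 (0.01) and Asns (0.06). These scalings move the median of detected probes to 0.40 and 0.20, and relative to it all 8 genes stayed below 0, at -0.37 to -0.07. Uggt1 (0.05) was -0.01 without maturation replicate 1 or 2, -0.00 without secretory replicate 1 and -0.06 without secretory replicate 4. The cause of the other changes was not tested. Probes near background, such as Atf6, Ern1 and Hyou1, allow no statement.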

Other observations

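The 22 promoters with the ERSE belong to 21 genes, 14 of them on the array and detected. Of these, 4 fell (Xbp1, Hsp90b1, Creld2 and Pan2), 5 rose (Dnajc3, Derl3, Zfand2a, Foxd4 and Ppm1l) and 5 did not pass (Hspa5, Canx, Calr, Hnrnpa3 and Zfp57). Ppm1l and Derl3 were detected in the maturation stage alone. Of the 12 genes detected on all arrays 4 fell (33.3%) and 3 rose (25%), near the 29.9% and 24.1% of all probes so detected. The 14 were picked by their promoter letters, and the 3 described next were named after their values were seen. Creld2, which encodes a disulfide isomerase-like protein, fell by 0.63 (SE 0.103, adjusted p = 0.00123), and Zfand2a, a stress-induced zinc finger gene, rose by 0.87 (SE 0.0896, adjusted p = 6.45e-05). Ppm1l, which encodes an ER phosphatase known to act on IRE1, was detected on the 4 maturation arrays alone and was at least 3.29-fold higher there (adjusted p = 4.96e-06).

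The probes whose pattern over the 8 arrays was most like that of Hspa5, among 9155 others detected on all arrays, were Hnrpul1 (r = 0.989), RGD1563508 (0.986), Ipo7 (0.986), MGC95092, now Lhpp (0.985), and Ell2 (0.983). All 5 were lower in maturation, by -0.84, -0.47, -0.36, -0.82 and -0.56, and the 8 points of each correlation fall into 2 groups, the stages.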
